A study of Mus musculus with 16 samples.

Results

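The molecules described here are the 5p arms of the mouse microRNAs numbered 6896 to 7094, a late block of the miRBase numbering that is rich in mirtrons. They were chosen by name alone, as every mouse miRNA on the array with a number in that range and the ending 5p, which gave 201 of the 1881 mouse miRNAs measured. The 199 3p arms of the same numbers on the array served as the background. Levels were read in serum, prepared from heart blood of male mice that were 4, 8, 36 or 58 weeks old, with 4 mice at each age. No genotype, treatment or strain is named in the labels. Serum RNA from each mouse was labelled with Cy3 and hybridised to its own Agilent 1-colour miRNA array, and the question was which serum miRNAs change with age.

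A miRNA hairpin has 2 arms, and the cell can load either the 5p or the 3p arm into an Argonaute protein, which is then led to messenger RNAs mainly by the seed, bases 2 to 8 of the mature strand. Most hairpins are cut from long transcripts by Drosha, whereas a mirtron is a short intron, or the end of one, that the spliceosome cuts out and that Dicer then takes over directly. Mirtron hairpins therefore end where an intron ends, with the bases AG, and their 3p arm lies on the pyrimidine-rich stretch before the splice site. Circulating miRNAs in serum come from blood cells and many organs, and are carried in vesicles or bound to protein.

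Of the 201 members, 177 had a mature sequence in RefSeq (GRCm38.p6), and those the results turn on are shown 5′ to 3′ with the seed in capitals. The first 4 were detected on 14 or 15 of the 16 arrays, the next 2 had the smallest p for a trend with age, and miR-6965-5p has the seed of miR-7047-5p.

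miR-7047-5p: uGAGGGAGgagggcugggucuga
miR-6931-5p: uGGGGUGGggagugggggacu
miR-6937-5p: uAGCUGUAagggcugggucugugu
miR-7036a-5p: aGCGGGGUucgguggggaagaga
miR-6995-5p: cUGGGAGUagaagggggaaacca
miR-7020-5p: uGGGAUGGuggagagggugaccag
miR-6965-5p: aGAGGGAGgcuauugggcaggaga

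The 3p arms of the block are of the opposite kind, and 3 that were detected on 11 or 13 arrays are shown. These 3 are rich in cytosine even for 3p arms (57.1% to 60.9%). Others detected on 11 or 12 arrays held less, such as miR-7085-3p (50%) and miR-6962-3p (40.9%). Only miR-7047-3p is the partner of an arm shown above.

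miR-7047-3p: uCACCCUCacccuuccuccuucc
miR-7017-3p: aCCCUGCUccucucccuccag
miR-7052-3p: gCUCUGCCcccuccuucccag

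Over the 177 members with a sequence, the median guanine content was 43.5% and the median cytosine content 13.6%. In 175 3p arms these were 14.3% and 40.9%, and in 1256 other mouse miRNAs 26.1% and 22.7%. A run of 4 guanines (GGGG, searched in the mature RNA as written) was present in 37.9% of members, in 1.14% of 3p arms and in 11.3% of all mouse miRNAs with a sequence. The block is thus guanine-rich on the 5p side and cytosine-rich on the 3p side.

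The hairpins carried the marks of introns. Of 172 hairpins with a RefSeq entry that hold a member, 159 (92.4%) ended in AG, against 79 of 833 other mouse hairpins (9.48%). A start in GU, the first bases of an intron, was found in 26 (15.1%), against 6.12% of the others. The span of a protein-coding gene held 171 of the 172 (99.4%), against 57.7% of the other hairpins. Whether a hairpin fills an intron was not tested, since only gene spans were used. Those of miR-6931 and miR-7020 are shown with the closing AG in capitals, beside that of the tested member miR-6973b, which lacks it.

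Mir6931, chr11:102999848-102999921, minus strand, within Dcakd: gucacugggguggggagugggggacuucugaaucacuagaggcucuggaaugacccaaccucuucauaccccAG
Mir7020, chr4:139644042-139644111, plus strand, within Aldh4a1: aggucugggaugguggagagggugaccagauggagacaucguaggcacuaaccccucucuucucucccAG
Mir6973b, chr2:131040319-131040398, minus strand, within Gfra4: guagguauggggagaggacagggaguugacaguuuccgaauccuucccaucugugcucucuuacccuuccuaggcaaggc

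Dcakd is related to coenzyme A synthesis, Aldh4a1 encodes a mitochondrial enzyme of proline breakdown and Gfra4 a receptor subunit for a GDNF-family ligand. Coordinates are those of GRCm38.p6.

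All 9 miRNAs taken as a check for serum were detected on 15 or 16 arrays. The SD of the negative-control spots, a measure of array background, ranged from 1.82 to 59.3 intensity units. Feature Extraction, the scanner software, marked 3 arrays for evaluation. They were replicate 1 of 4 weeks with an SD of 19.1, replicate 4 of 4 weeks with 7.45, and replicate 4 of 36 weeks with 59.3. Arrays of 4 and 8 weeks lay on slide 1 and those of 36 and 58 weeks on slide 2, so that age and slide cannot be told apart in comparisons across them. P-values measure the spread between arrays within an age, pooled over the 4 ages. Each serum was read on 1 array, so differences between mice and array noise are not separated in that spread. In serum a change in release and one in clearance cannot be told apart.

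The members were seldom detected. By the deposited detection call, 35 of 201 (17.4%, 95% Wilson interval 12.8% to 23.3%) were detected on at least 1 array, against 30.4% of all 1881 mouse miRNAs. No member was detected on all 16 arrays, and 166 were detected on none. Of the 3p arms, 131 of 199 (65.8%, interval 59.0% to 72.1%) were detected at least once. Among other 5p arms the share was 27.2% of 356 numbered under 1000, 18.4% of 98 numbered 1000 to under 5000, 22.2% of 27 numbered from 5000 up to the block and 12.9% of 85 numbered above 7094. These shares count miRNAs, which share arrays and are not replicates.

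Among 198 numbers with both arms on the array, 107 were detected by the 3p arm alone, 12 by the 5p arm alone, 23 by both and 56 by neither. Only 11 of these 23 were ever called on both arms on 1 same array. The pair miR-7047 was called on both arms on 12 arrays, miR-7036a on 8, and miR-6931 and miR-7082 on 6 each.

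The number of members detected changed from array to array, mostly against that of their 3p arms. At 4 weeks, the 4 arrays in replicate order detected 4, 32, 25 and 8 members, and 130, 5, 30 and 72 of the 3p arms. At 8 weeks the counts were 22, 24, 9 and 31 members against 5, 1, 34 and 1 of the 3p arms. At 36 weeks they were 10, 13, 13 and 0 against 9, 48, 97 and 97. At 58 weeks they were 7, 4, 14 and 5 against 91, 70, 0 and 52. At 4, 8 and 58 weeks the array with the most members had the fewest 3p arms or tied for the fewest. At 36 weeks the first 3 arrays were close in members while their 3p arms ran from 9 to 97.

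This contrast moved with array background. The 6 arrays with the lowest negative-control SD, 1.82 to 2.59, detected 14 to 32 members and 0 to 30 of the 3p arms. The 7 arrays with an SD of 2.76 to 4.45 detected 4 to 13 members and 9 to 97 of the 3p arms. The 3 marked arrays detected 0 to 8 members and 72 to 130 of the 3p arms. Before scaling, the median signal of the 21 members tested below was -139 intensity units on 36-week replicate 4, below the local background, and 39.7 on 8-week replicate 4. For the 57 tested 3p arms the same medians were 441 and 1.77. The part of array background in the differences between ages described below was not tested.

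**Figure D1:**
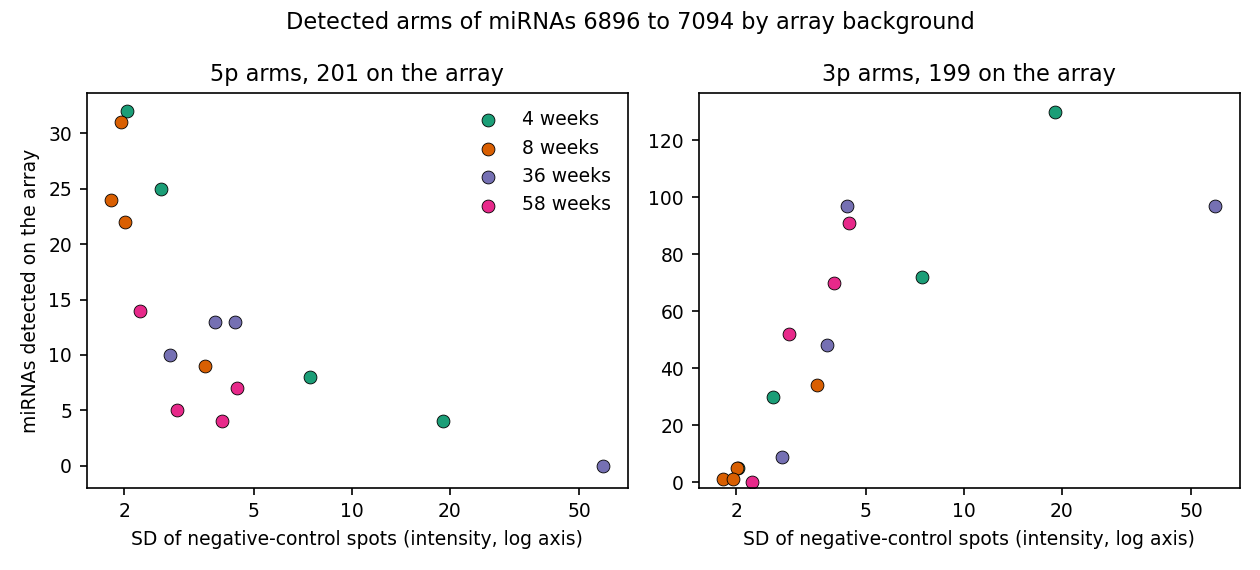
Number of 5p arms (left) and 3p arms (right) of miRNAs 6896 to 7094 detected on each of the 16 arrays, against the SD of that array's negative-control spots on a log axis, with 1 point per array coloured by age. The 5p counts run from 32 at low background to 0 on the array with the highest SD, while the 3p counts run from 0 to 130.

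By age, 4-week arrays detected 17.2 ± 13.4 members (mean ± SD, n = 4) and 8-week arrays 21.5 ± 9.18. The older mice gave 9 ± 6.16 members at 36 weeks and 7.5 ± 4.51 at 58 weeks. The ranges overlapped between all ages, from 4 to 32 at 4 weeks and from 4 to 14 at 58 weeks. All 35 detected members were seen at 4 or 8 weeks, and 16 of them also at 36 or 58 weeks. No member was detected only at the later ages. Members detected at least once numbered 33, 32, 15 and 14 from the youngest to the oldest age. The 3p arms numbered 130, 36, 103 and 91. Over all 1881 mouse miRNAs, arrays detected 290 ± 50.1, 216.5 ± 23.8, 226 ± 61.8 and 219 ± 47.6 in that order (n = 4 each). How many of the 1881 were seen only at 4 or 8 weeks was not counted, so the member counts are a description. The 14 detected members that were too rare to test, among them miR-7050-5p and miR-7070-5p with 4 arrays each, were seen on no array of 36 or 58 weeks. Array background, as the negative-control SD, averaged 7.78 ± 7.90 (n = 4) over the 4-week arrays, 2.33 ± 0.81 over the 8-week, 17.6 ± 27.8 over the 36-week and 3.39 ± 1.01 over the 58-week arrays. The 36-week mean holds replicate 4 at 59.3, and the 4-week mean holds replicate 1 at 19.1. The median SDs were 5.02, 1.98, 4.09 and 3.44 from the youngest to the oldest age. The part of background in these counts by age was not tested.

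Detected members held more guanine than undetected ones. The median was 52.1% in the 32 detected members with a sequence, 54.2% in the 19 tested ones, and 42.9% in the 145 never detected. No member with under 30% guanine was detected (0 of 8). The share was 4 of 48 (8.33%) from 30% to under 40%, 8 of 66 (12.1%) from 40% to under 50%, and 20 of 55 (36.4%) at 50% and above. Other mouse miRNAs with at least 50% guanine were detected in 32 of 62 cases (51.6%). Below that the share among them did not climb with guanine, at 28.7% under 30%, 17.1% from 30% to under 40% and 30.3% from 40% to under 50%. GGGG was present in 18 of the 32 detected members (56.2%) and in 49 of the 145 undetected ones (33.8%). In the 3p arms detection went with the other base, since the median cytosine content was 42.9% in detected and 36.4% in undetected ones. These are descriptions over miRNAs that share families of sequence, arrays and labelling.

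**Figure D2:**
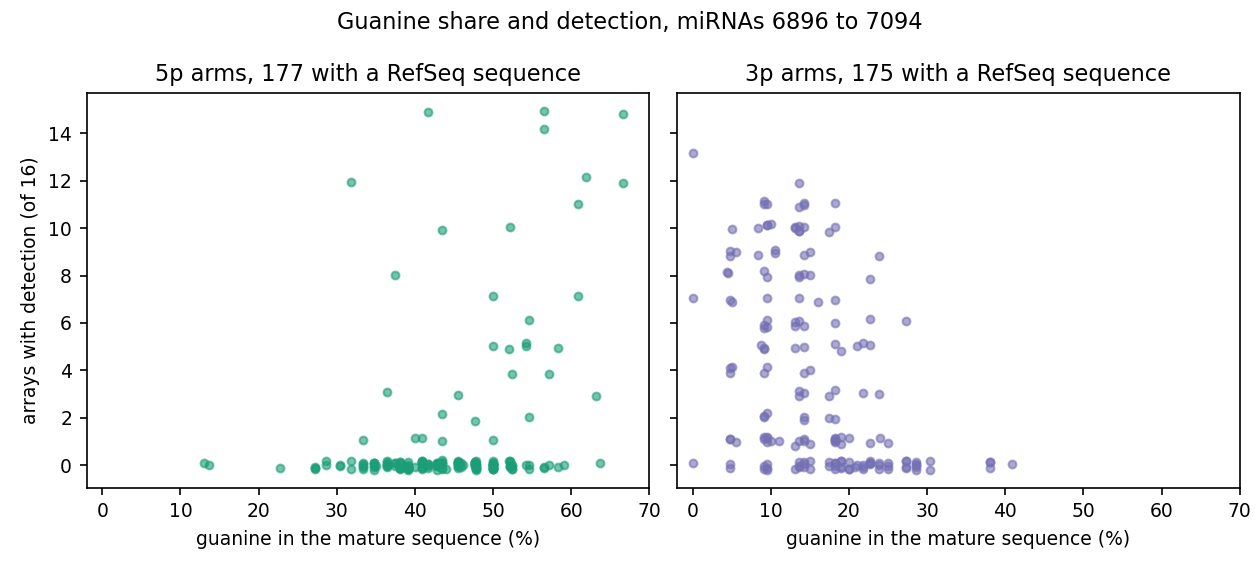
Number of arrays (of 16) on which a miRNA was detected, against the guanine content of its mature RefSeq sequence, for 177 5p arms (left) and 175 3p arms (right), each point being 1 miRNA with a small vertical jitter. Detected 5p arms lie mostly at 50% guanine and above, and detected 3p arms at 27.3% and below.

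Levels were compared for the 21 members detected on at least 3 of 4 arrays at 1 age or more, among 285 miRNAs that passed this filter. Values are the log2 of the signal after each array was scaled to an equal 75th percentile of the 24 miRNAs that no array failed to detect. Signals under a floor of 1.92 were set to it. A value of 1.92 is no upper bound, since the lowest log2 signal of a detected miRNA was 7.66 on 36-week replicate 4 and 4.61 on 4-week replicate 1. All 21 met the filter at 8 weeks, 10 also did at 36 weeks, 8 at 4 weeks and 5 at 58 weeks. Since 11 of them passed through 8 weeks alone, their values at 8 weeks were high by that choice, and counts over the 21 are a description. Without 8-week replicate 1, 2 or 4 the same filter passed 4.98% of the 201 members, against 10.4% with all arrays. All 21 were detected together on 5 arrays, 4-week replicates 2 and 3 and 8-week replicates 1, 2 and 4, which are also low in background.

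**Figure D3:**
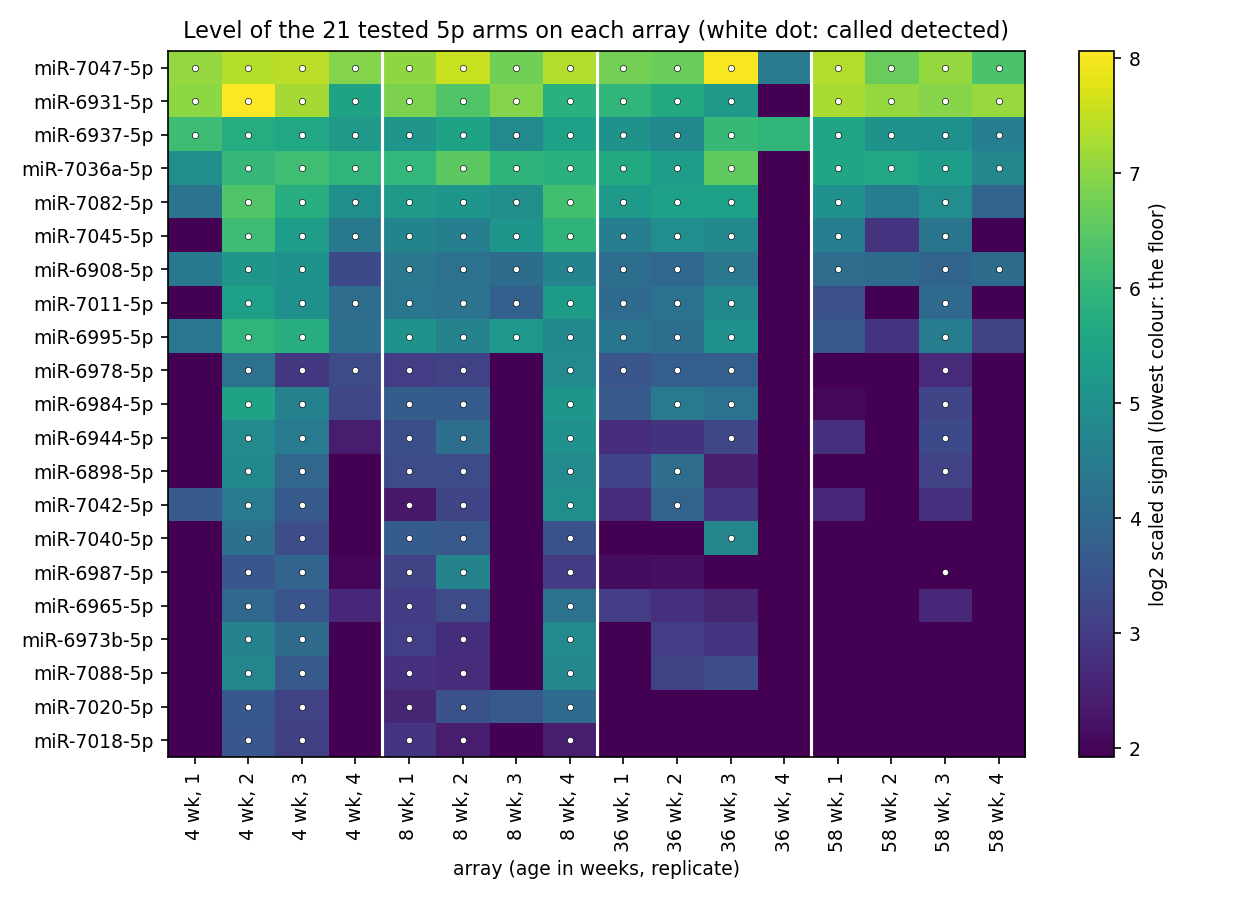
Log2 scaled signal of the 21 tested 5p arms (rows, ordered by the number of arrays with detection) on the 16 arrays (columns, by age and replicate), where the darkest colour is the floor of 1.92 and a white dot marks a detection call. The last column at 36 weeks has no dot. The lower rows leave the floor mainly on 5 arrays of 4 and 8 weeks, which are among the 6 of lowest background.

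MiR-7047-5p was detected on every array but 36-week replicate 4. Its log2 levels were 7.10, 7.39, 7.43 and 6.92 at 4 weeks, 7.05, 7.55, 6.76 and 7.36 at 8 weeks, 6.78, 6.66, 8.00 and 4.45 at 36 weeks, and 7.36, 6.64, 7.09 and 6.33 at 58 weeks. All ages overlapped, and no difference between ages passed in limma (F test, adjusted p = 0.680). The level of its own 3p arm ranged from 2.18 on 8-week replicate 2 to 9.56 on 36-week replicate 4.

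MiR-6931-5p, from the hairpin within Dcakd, stood out at 36 weeks. Its log2 levels were 7.01, 8.07, 7.24 and 5.47 at 4 weeks, 6.87, 6.40, 6.93 and 5.84 at 8 weeks, 5.96, 5.65, 5.25 and the floor at 36 weeks, and 7.29, 7.09, 6.96 and 7.11 at 58 weeks. Every 58-week array was above every 36-week array, by 2.42 ± 0.77 (SE) in the means, and both ages lay on 1 slide. This did not pass after adjustment over the 285 miRNAs in limma (adjusted p = 0.717, unadjusted p = 0.00655). The 36-week mean was 2.25 ± 0.77 (SE) lower than that of 4 weeks (limma adjusted p = 0.486). Without 36-week replicate 4 alone, these differences were 1.497 and -1.329, and neither passed. Without the 3 marked arrays the difference of 36 from 4 weeks was -2.03 ± 0.43 (limma adjusted p = 0.0289) and passed, as did 1.75% of all 285 miRNAs. At 4 weeks that fit kept only replicates 2 and 3, at 8.07 and 7.24. It dropped replicate 4, whose 5.47 lay below 36-week replicates 1 and 2.

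MiR-6937-5p lies within Adi1, an enzyme of methionine salvage, and miR-7036a-5p within Srrt, which encodes a nuclear cap-binding partner needed for miRNA processing. From the youngest to the oldest age, the levels of miR-6937-5p were 5.67 ± 0.38, 5.21 ± 0.31, 5.46 ± 0.63 and 5.04 ± 0.38 (SD, n = 4 each). Those of miR-7036a-5p were 5.78 ± 0.54, 6.06 ± 0.31, 4.86 ± 2.03 and 5.33 ± 0.38 in the same order. The large SD at 36 weeks came with 36-week replicate 4, which was at the floor beside 5.66, 5.30 and 6.56. Neither passed in a comparison with all arrays weighted alike. With a weight for each array, miR-7036a-5p passed for 58 against 8 weeks (limma adjusted p = 0.0155), in the F test (0.0469) and in the trend (0.0106).

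MiR-7020-5p gave the smallest p among the members for the F test. It was at 1.92, 3.62, 3.14 and 1.92 at 4 weeks, at 2.56, 3.45, 3.63 and 4.06 at 8 weeks, and at the floor on all 8 arrays of 36 and 58 weeks. The 8-week values were thus all above the floor value set on the later arrays, in a member that passed the filter through 8 weeks alone. Replicate 3 of 8 weeks had no detection call. The 2.56 of replicate 1 lay under the lowest log2 signal of a detected miRNA on some later arrays. That signal was 2.61 to 7.66 on 36-week replicates 2, 3 and 4 and 58-week replicates 1, 2 and 4. Of its 2 probes, 1 was above the floor on 2 arrays and the other on 11. The fitted difference of 58 from 8 weeks was -1.51 ± 0.46 (SE; limma adjusted p = 0.315). For a further ratio, undetected 58-week values were raised to the lowest log2 signal of a detected miRNA on their array, where higher. The 8-week mean was kept as measured. The ratio of 8 to 58 weeks was then 1.24, and fell to 0.938 when 1 array of 58 weeks was left out. It is no lower limit, since on 8-week replicate 3 the uncalled 3.63 lay above the lowest detected signal of 1.86. No fold is secured.

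MiR-6995-5p, within Sh3pxd2a, a scaffold gene of invasive cell feet called podosomes, had the smallest p for the trend. Its levels were 4.33, 5.93, 5.78 and 4.16 at 4 weeks, 5.08, 4.67, 5.20 and 4.79 at 8 weeks, 4.31, 4.14, 5.03 and the floor at 36 weeks, and 3.65, 2.84, 4.51 and 3.19 at 58 weeks. Every 58-week array lay below every 8-week array, in a comparison across slides. At 58 weeks only replicate 3 had a detection call, and at 4 weeks replicates 1 and 4 had none. On 58-week replicates 2 and 4 the values lay under the lowest log2 signal of a detected miRNA, 3.47 and 3.58. The slope was -0.41 ± 0.14 (SE) per doubling of age, with an adjusted p of 0.346 in limma. With slide as a block the slope was -0.22 ± 0.52 (SE; limma adjusted p = 0.852).

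With all 16 arrays weighted alike, no member passed an adjusted p of 0.05 in limma in any of the 6 pairs of ages, in the F test or in the trend. Over all 285 miRNAs the percentage called was 0% for 8 against 4 weeks, 36 against 8, 58 against 8 and 58 against 36 weeks. It was 0.351%, 1 miRNA, for 36 against 4 weeks, 58 against 4 weeks, the F test and the trend. At an unadjusted p under 0.05, the members numbered 0 for 8 against 4 weeks (2.11% of all tested), 1 for 36 against 4 (3.51%) and 1 for 58 against 4 (4.56%). They numbered 2 for 36 against 8 (29.8% of all), 3 for 58 against 8 (5.26%), 1 for 58 against 36 (1.75%), 2 in the F test (4.56%) and 4 in the trend (8.77%).

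In direction the tested members differed from the tested 3p arms of the block. The 2 sets come mostly from different hairpins, since both arms were tested for only 9 numbers. The fitted slope with age was below 0 in 21 of 21 members, against 42.1% of all 285, and above 0 in 57 of 57 tested 3p arms. The median slope was -0.25 per doubling of age in members, 0.31 in 3p arms and 0.12 over all tested miRNAs. Each of the 21 slopes lay between -0.41 and -0.10. Of the 42 probes that read these members, 40 had a slope below 0, and the other 2 were at the floor on every array. Those 2 were 1 probe of miR-6978-5p and 1 of miR-6987-5p. The 21 slopes are not independent, since they were read on the same 16 arrays, which differ in background. The filter also chose the arms at different ages. All 21 members met it at 8 weeks, whereas of the 3p arms 0 did at 8 weeks, 29 at 4, 48 at 36 and 50 at 58 weeks. The contrast in sign is therefore partly set by the filter and is a description.

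In the pairs of ages the medians of members and 3p arms lay on opposite sides of 0 except for 58 against 36 weeks. For 8 against 4 weeks, where 11 members were higher and 10 lower, the median log2 difference was 0.02 in members and -1.62 in 3p arms, and for 58 against 36 weeks -0.42 and -0.99. Across slides it was -0.70 and 1.10 for 36 against 4 weeks, -0.93 and 0.09 for 58 against 4, -0.70 and 2.72 for 36 against 8, and -1.13 and 1.73 for 58 against 8. Over all tested miRNAs the medians in the same order were -0.72, -0.52, 0.32, -0.0031, 0.71 and 0.71. These comparisons share samples and are not independent of each other. The medians of the 3p arms turned with single arrays. Without 36-week replicate 4 the 3p median was 0.17 for 58 against 36 weeks and -0.06 for 36 against 4 weeks, and the median of all tested miRNAs was 0.06 and -0.06. Members' medians were then -0.70 and -0.25. Without the 3 marked arrays the medians for 8 against 4 weeks were -0.78 in members and 0.16 in 3p arms.

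The calls depended on the arrays in the fit and on the slide. Without the 3 marked arrays, 15 of the 21 members passed the trend in limma, all 15 of them lower with age, where 54.7% of all 285 passed in either direction and 16.5% passed and were lower. Of the 57 3p arms 54 passed, none with a slope below 0. In the same setting 10 members were lower at 58 than at 4 weeks (12.3% of all called), among them miR-6995-5p at -2.31 ± 0.46 (SE; limma adjusted p = 0.0149) and miR-7011-5p, within the semaphorin gene Sema4a, at -2.37 ± 0.62 (limma adjusted p = 0.0327). For 36 against 4 weeks miR-6931-5p was the 1 member (1.75% of all called), and in the F test miR-7020-5p (2.81%). There 4 weeks kept replicates 2 and 3, whose negative-control SDs were 2.03 and 2.59, and 58 weeks kept SDs of 2.23 to 4.45. The part of background in this difference was not tested.

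With slide as a block and all arrays, 0 members passed the trend (0% of all called). The slope was then below 0 in 12 of 21, against 75.1% of all 285, with a median of -0.16, while all 57 of the 3p arms were below 0, with a median of -1.57. With both the block and the 3 arrays left out, an alternative added after seeing the data, 19 of 21 slopes were below 0, against 59.3% of all, with a median of -0.88, and 0 passed.

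Weights for each array, which let limma count noisy arrays less, also changed the calls. For 36 against 4 weeks 2 members passed (4.21% of all called), for 58 against 4 weeks 17 (62.1%) and for 36 against 8 weeks 6 (63.2%). For 58 against 8 weeks 16 passed (67.7%), for 58 against 36 weeks 10 (15.1%), in the F test 18 (76.5%) and in the trend 16 (65.6%). Without scaling between arrays, miR-6995-5p alone passed the trend (2.11% of all), with a slope of -0.64 ± 0.16 (SE; limma adjusted p = 0.0426).

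**Figure D4:**
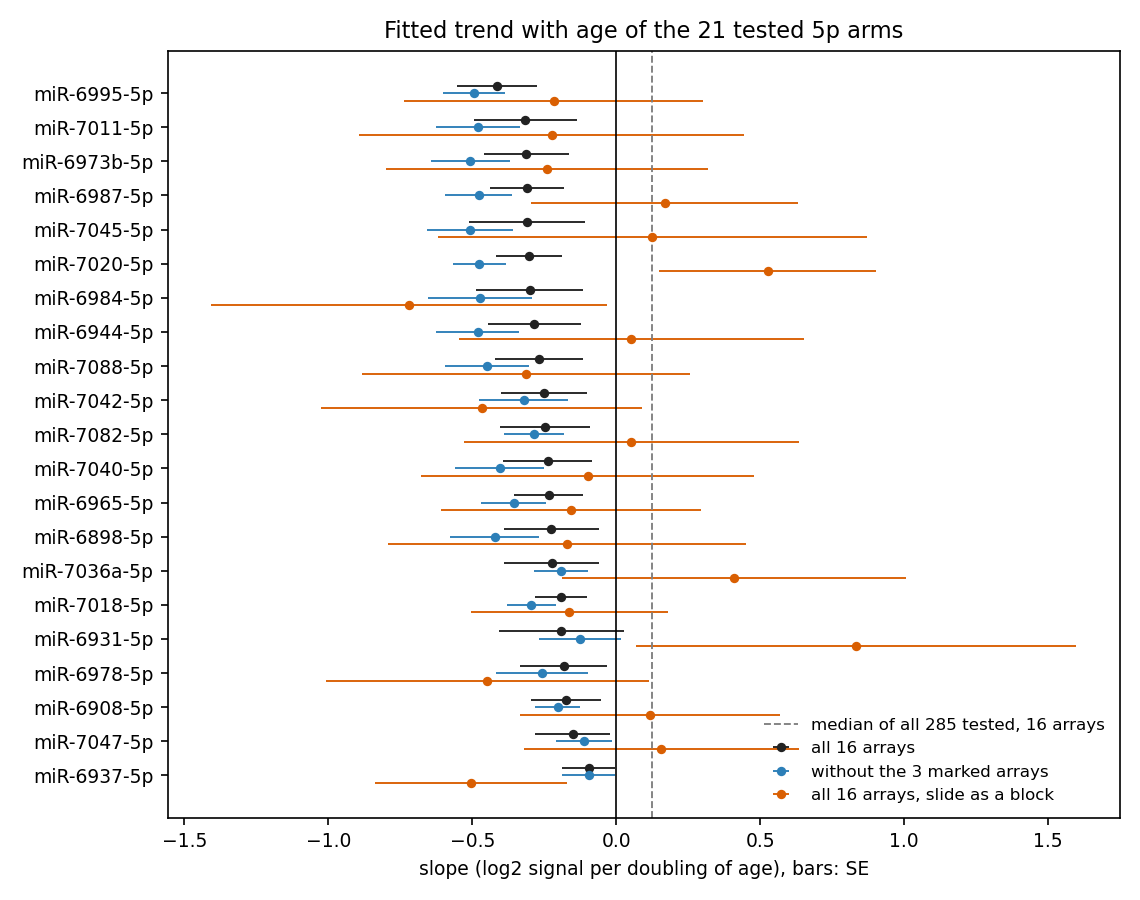
Fitted slope of the log2 scaled signal per doubling of age for each of the 21 tested 5p arms, with bars for the SE, from all 16 arrays (black), without the 3 marked arrays (blue) and with slide as a block (orange), beside the median slope of all 285 tested miRNAs (dashed). Black and blue points are all below 0, whereas the orange ones lie on both sides with wide errors.

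The other named members went by similar values. MiR-7082-5p, within the splicing regulator gene Raver1, and miR-7045-5p, within the chromatin remodeller gene Chd4, were each detected on 12 arrays. Their slopes were -0.25 ± 0.16 (SE) and -0.31 ± 0.20 per doubling of age. MiR-6908-5p, within the vitamin B6 kinase gene Pdxk, was also detected on 12 arrays and had a slope of -0.17 ± 0.12. MiR-6978-5p, within the complement gene C3, was detected on 10 arrays, 3 at each of 4, 8 and 36 weeks and 1 at 58 weeks. Only 1 of its 2 probes was above the floor on any array. None of these slopes passed in limma with all arrays (adjusted p = 0.525 for each). Without the 3 marked arrays miR-7082-5p (adjusted p = 0.0330), miR-7045-5p (0.0314) and miR-6908-5p (0.0391) passed the trend in limma, as they did with array weights.

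Another 5 members, miR-6965-5p, miR-6973b-5p, miR-7018-5p, miR-7020-5p and miR-7088-5p, were detected on 2 arrays of 4 weeks, 3 of 8 weeks and none of the later 8. All 5 passed the filter through 8 weeks alone, so their detection at 8 weeks was fixed by that choice. The matching share over all 285 tested miRNAs was not counted, and the 5 are a description. All 21 tested members were called on these 5 arrays, which were low in background. Replicate 3 of 58 weeks, with an SD of 2.23, was low too and detected 14 of the 21 but none of these 5 members. MiR-7018-5p lies within Hspg2, the gene of the basement membrane proteoglycan perlecan, and miR-7088-5p within Mst1, the gene of a liver-made serum growth factor. For miR-7018-5p the levels at 4 weeks were 1.92, 3.59, 3.09 and 1.92, at 8 weeks 2.86, 2.39, 1.92 and 2.39, and the floor on all later arrays. By the ratio described for miR-7020-5p, with all arrays, neither it nor miR-7088-5p reached 1-fold between an earlier and a later age.

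Shared seeds were few. The 177 members with a sequence held 156 distinct seeds, and 18 seeds were shared by 39 members. Of the tested members, miR-7047-5p and miR-6965-5p share GAGGGAG, and miR-3103-5p, which was detected on no array, has it too. The pair went apart in detection, with 15 arrays for miR-7047-5p and 5 for miR-6965-5p. Both were detected together on the 5 arrays that called all tested members.

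At the ends of the block, the first member, miR-6896-5p, and the last, miR-7094b-2-5p, were detected on no array. The nearest 5p arm below the block, miR-6769b-5p, was detected on 15 arrays, and the nearest above, miR-7115-5p, on none.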

How the data were processed

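The deposited files are the scanner output of 16 arrays written by Agilent Feature Extraction, version 11.5 in the submitters' processing notes and 11.5.1.1 in the headers. Spot intensity is the authors' deposited processed signal, background-subtracted and not scaled between arrays, and detection calls are likewise deposited. Spots flagged as outliers were left out, and spots were averaged per probe and probes per miRNA. Scaling used the 75th percentile over 24 miRNAs, with a floor of 3.79 before log2. Ages were compared in limma 3.58.1 (R 4.3.3, lmFit and eBayes, 1 mean per age over 16 arrays, or a slope on log2 age), with Benjamini-Hochberg adjustment over 285 miRNAs. The fit was tested on simulated data with independent noise and no floor, array background or slide effect. That test cannot speak for those features here. Intervals cover counting only, and the number of arrays limits precision.

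The members were set by their names alone, but that rule, the lists and the tests were chosen with earlier results of these data known. Members were named if they passed, had 1 of the 5 smallest p in a comparison, were detected on the most arrays, lacked detection at 1 age, shared a seed or ended the block. Same-numbered arrays did not deviate together (residual correlations from -0.90 to 0.81), so replicate numbers were not taken as pairs.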

Additional observations from a re-analysis of the deposited data

Results flagged for a closer look

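Within an age, 11 of 84 sets of 4 arrays had 1 array far from the other 3 by Dixon's test, over the levels of the 21 members, the number of members detected and their median level, sets without spread left out. Chance gives about 1 in 20 for independent, untied values. That rate does not hold here, since the sets share 16 arrays and in 4 of the 11 the other 3 values are tied at the floor. On 36-week replicate 4, the array with the highest background, 19 of the 21 members were at the floor of 1.92 on the log2 scale. Those set apart by the test were 4, miR-6908-5p (others 3.97 to 4.37), miR-6978-5p (3.55 to 3.79), miR-7045-5p (4.56 to 4.93) and miR-7082-5p (5.24 to 5.45). The array 58-week replicate 3, with the lowest background of its age, was high for miR-6898-5p at 3.12, miR-6965-5p at 2.62 and miR-6978-5p at 2.66, where the other 3 were at 1.92. It was also high for miR-6984-5p at 3.21 (others 1.92 to 2.05) and low for miR-6908-5p at 3.89 (others 4.09 to 4.11). MiR-7040-5p was at 1.92 on 8-week replicate 3 (others 3.48 to 3.72) and at 4.72 on 36-week replicate 3 (others 1.92).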

How the results depend on the processing

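Of the results that answer a comparison, 412 values under the alternatives kept within the limits set (1.5 times for a count, 1 SD between arrays, 1.09, for a median) and 15 did not. Within that wide limit the members' median for 8 against 4 weeks went from 0.02 to -0.78 without the 3 marked arrays and to 0.56 with quantile normalization. With array weights, 2 members passed for 36 against 4 weeks, 17 for 58 against 4, 6 for 36 against 8, 16 for 58 against 8, 10 for 58 against 36, 18 in the F test and 16 in the trend. Without the 3 marked arrays, 1 passed for 36 against 4 weeks, 10 for 58 against 4, 1 in the F test and 15 in the trend. Without scaling, 1 passed the trend (miR-6995-5p), and the median slope of all tested miRNAs moved from 0.12 to -0.08. Members' slopes were below 0 in 21 of 21 with no scaling, quantile normalization, the deposited total signal and normexp. Each of these settings used the same members and the same 16 arrays, so the sign is partly set by the filter. With slide as a block the slopes lay on both sides of 0. Leaving out each array in turn, 0 members passed in every comparison. The medians then ran from -0.27 to 0.42 for 8 against 4 weeks, -0.94 to -0.25 for 36 against 4, -1.26 to -0.48 for 58 against 4, -1.01 to -0.24 for 36 against 8, -1.44 to -0.65 for 58 against 8 and -0.70 to -0.15 for 58 against 36. The share of members tested was 4.98% without 8-week replicate 1, 2 or 4, and 10.4% otherwise at most, and the share detected 16.4% to 17.4%. With slide as a block, the slope turned to 0.53 for miR-7020-5p and 0.17 for miR-6987-5p, and with the 3 arrays also left out to 0.028 for miR-7020-5p. With array weights the difference of miR-7020-5p for 8 against 4 weeks turned to -0.013. With the replicate number as a block, 0 members passed and the median for 58 against 8 weeks was -1.13, and 2 of 16 arrays correlated best with their own number. Scaling over all mouse miRNAs was not run, as the percentile was not above 0 on 1 array. The cause of these moves was not tested. Most members lie near or under the floor, so small changes were not measurable.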
